A study of Mus musculus with 8 samples.

Results

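The genes of the complement and coagulation cascades were followed in mouse liver as a set of 39, taken by symbol from a deposited table of read counts with 22946 rows. The rule itself uses no measured value, but the members were chosen with earlier results of these data known. The set holds 18 genes of complement, 20 of the contact system, coagulation, its inhibitors and fibrinolysis, and Ahsg, which encodes the plasma protein fetuin-A. Each of the 39 stood in a row of its own, and all 39 passed the filter on low counts that left 12593 rows for testing. Cfd passed only through the libraries in which it was high. RNA-seq had been made from total RNA of livers of mice described as C57 Black. Diets began at the age of 8 weeks and lasted 8 weeks. The 4 groups were wild-type mice on chow (libraries 1 and 2), wild-type mice on a high fat diet, HFD (libraries 5 and 6), mice labelled MLL4 het on chow (libraries 3 and 4) and mice labelled MLL4 het on HFD (libraries 7 and 8). MLL4 is a histone H3 lysine 4 methyltransferase of enhancers, encoded by Kmt2d. The labels give no allele, and no treatment other than the diet. The series design asks which genes the diet alters in wild-type livers and which of these it alters less in the livers labelled het.

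Complement is a cascade of plasma proteins that tags and lyses microbes. The classical, lectin and alternative routes meet at the cleavage of C3, after which the terminal components assemble a pore in the target membrane. Coagulation is a parallel cascade of proteases in which the contact and tissue factor routes meet at factor X and prothrombin, and thrombin turns fibrinogen into fibrin that plasmin later dissolves. Hepatocytes secrete most of these proteins into blood, several of them as acute phase proteins under interleukin-6, whereas properdin and the C1q chains come mainly from myeloid cells and factor D mainly from fat tissue.

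Libraries held between 14142884 and 18928676 counts, and the chi-square per degree of freedom between the libraries of 1 group was 15.8 to 17.3, above sampling noise. Levels are given as CPM, the count divided by the scaled library size in units of 1e6 counts, and a count of 3 came to between 0.161 and 0.213 CPM. Nothing in the labels says that libraries came from separate animals, so p-values measure the spread between libraries, which may be technical. Along the third principal component, with 14.2% of the variance, library 8 stood at 28.6 and library 3 at -20.6. Kmt2d stood at 61.2 and 69.6 CPM on chow and 63.3 and 64.7 on HFD in the wild-type libraries, and at 59.95 and 72.1 on chow and 62.8 and 75.4 on HFD in the het-labelled ones. It did not differ detectably between the genotypes on chow (log2 difference 0.01 ± 0.13, as for all log2 values ± the SE, 95% interval -0.27 to 0.30, edgeR adjusted p = 0.975) or on HFD (0.11 ± 0.12, 95% interval -0.17 to 0.39, edgeR adjusted p = 0.7603). These libraries are therefore called het-labelled, and gene-level counts cannot show an allele that is still transcribed. The hepatocyte markers were abundant, with all 8 listed genes tested and a share of counts from 7.18% to 9.22%.

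Together the 39 genes took 4.54 and 3.97% of the counts on chow and 2.99 and 3.08% on HFD in wild-type livers, and 4.09 and 4.400% on chow and 3.29 and 3.51% on HFD in het-labelled ones. In both genotypes the HFD libraries lay below the chow libraries. Relative to exon length, a scale on which levels of different genes can be set side by side, Ahsg stood highest in wild-type chow livers at 3587 CPM per kb. The fibrinogen gamma, alpha and beta chain genes Fgg, Fga and Fgb followed at 1563, 1295 and 1025 CPM per kb, with C3 among them at 1199.8. Plasminogen (Plg, 798 CPM per kb) and prothrombin (F2, 719) came next. The lowest were the lectin pathway protease Masp1 (8.298 CPM per kb), properdin (Cfp, 6.26) and factor D (Cfd, 0.588).

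**Figure D1:**
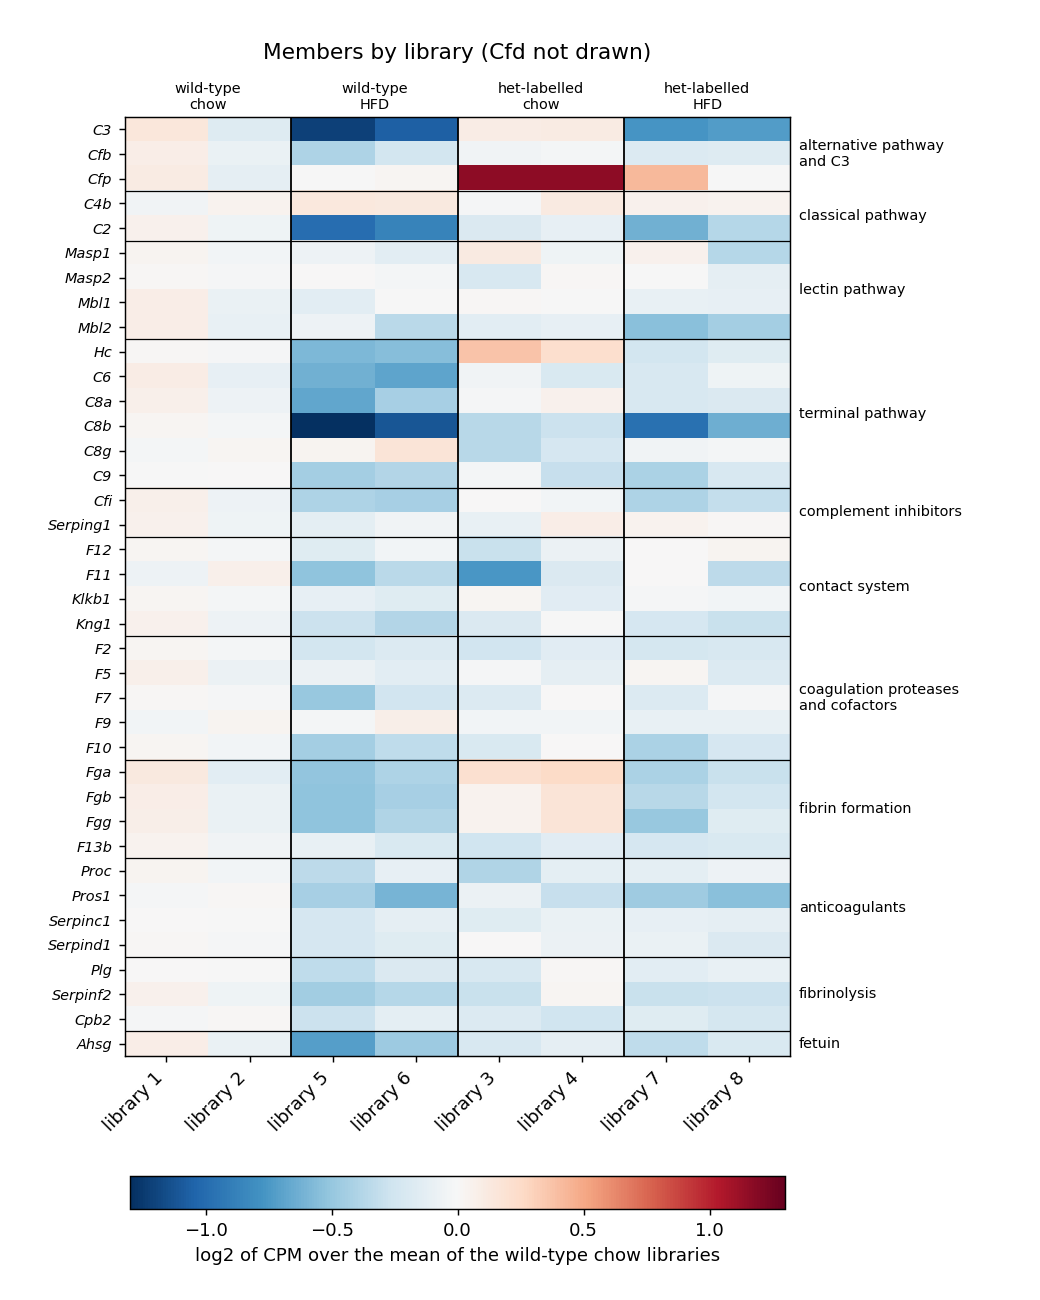
Level of 38 members in each of the 8 libraries (columns), as log2 of CPM over the mean of the wild-type chow libraries; rows are ordered by cascade, and Cfd is not drawn because its range exceeds the colour scale. C3, C2 and C8b are bluest in the wild-type HFD libraries, and Cfp is reddest in the het-labelled chow libraries.

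Across the cascades C3, C2, most terminal components and a few coagulation genes were lower on HFD in wild-type livers. Of the 39 members, 10 were lower on HFD than on chow in wild-type livers, against 2.22% of all tested rows, and 1 was higher, against 2.37% (edgeR quasi-likelihood test, adjusted p under 0.05). The 10 were C3, C2, Hc, C6, C8a, C8b, Cfi, Fgb, Pros1 and Ahsg. The 1 was Cfd, which passed the filter only through libraries in which it was high. The median log2 change was -0.26 over the members, with 34 of 39 below 0, and 0.02 over all tested rows. Cfd lies above that median whatever value is taken for it. The chow and HFD libraries of 30 members did not overlap with HFD lower, against 25.2% of all rows, and those of 3 did not overlap with HFD higher, against 30.6%. An unadjusted p under 0.05 was found for 24 (all rows 19.1%). By edgeR 7 of 18 complement members and 2 of 20 of coagulation and fibrinolysis were lower, while DESeq2 called 8 and 6 lower, 10 and 13 had an unadjusted p under 0.05, and the median log2 changes were -0.26 and -0.24. The share of all rows that DESeq2 called is not reported here, so its counts have no background beside them. No difference between the cascades was tested. In het-labelled livers 4 members, C3, Cfp, Hc and Fga, were lower on HFD (all rows 1.48%) and 0 were higher (all rows 1.53%). The DESeq2 Wald test called 1 higher there, Cfd, and 13 members had an unadjusted p under 0.05 in either direction (all rows 18.2%). The members' median log2 change was -0.10 in het-labelled livers, with 28 of 39 below 0, and -0.01 over all tested rows. Libraries did not overlap with HFD lower in 18 (all rows 22.4%) and with HFD higher in 3 (all rows 22.3%). In bulk liver, fewer cells of a type and less RNA per cell cannot be told apart.

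The count of lower members in wild-type livers fell without library 1, 2, 5 or 6, each of which leaves a group with 1 library. C3, C2 and C8b kept their call under each of the 14 alternatives run. In het-labelled livers the count also fell without library 1, 2, 3, 4, 7 or 8. The shares of all rows called in these fits are not reported here. Whether the falls are particular to the members or shared by all rows can therefore not be told. Among markers of other cells, 2 of 3 rows of the erythroid list, the haemoglobin rows, were higher on HFD in wild-type livers, and the list summed to 320.2 and 258 CPM on chow and 828 and 654 on HFD. The summed hepatocyte markers were at 0.862 of their chow level on HFD in wild-type livers, with 1 of 8 lower, and the summed members at 0.726. In het-labelled livers these ratios were 0.861 and 0.814. Whether either marker list has a part in the members' values was not tested.

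**Figure D2:**
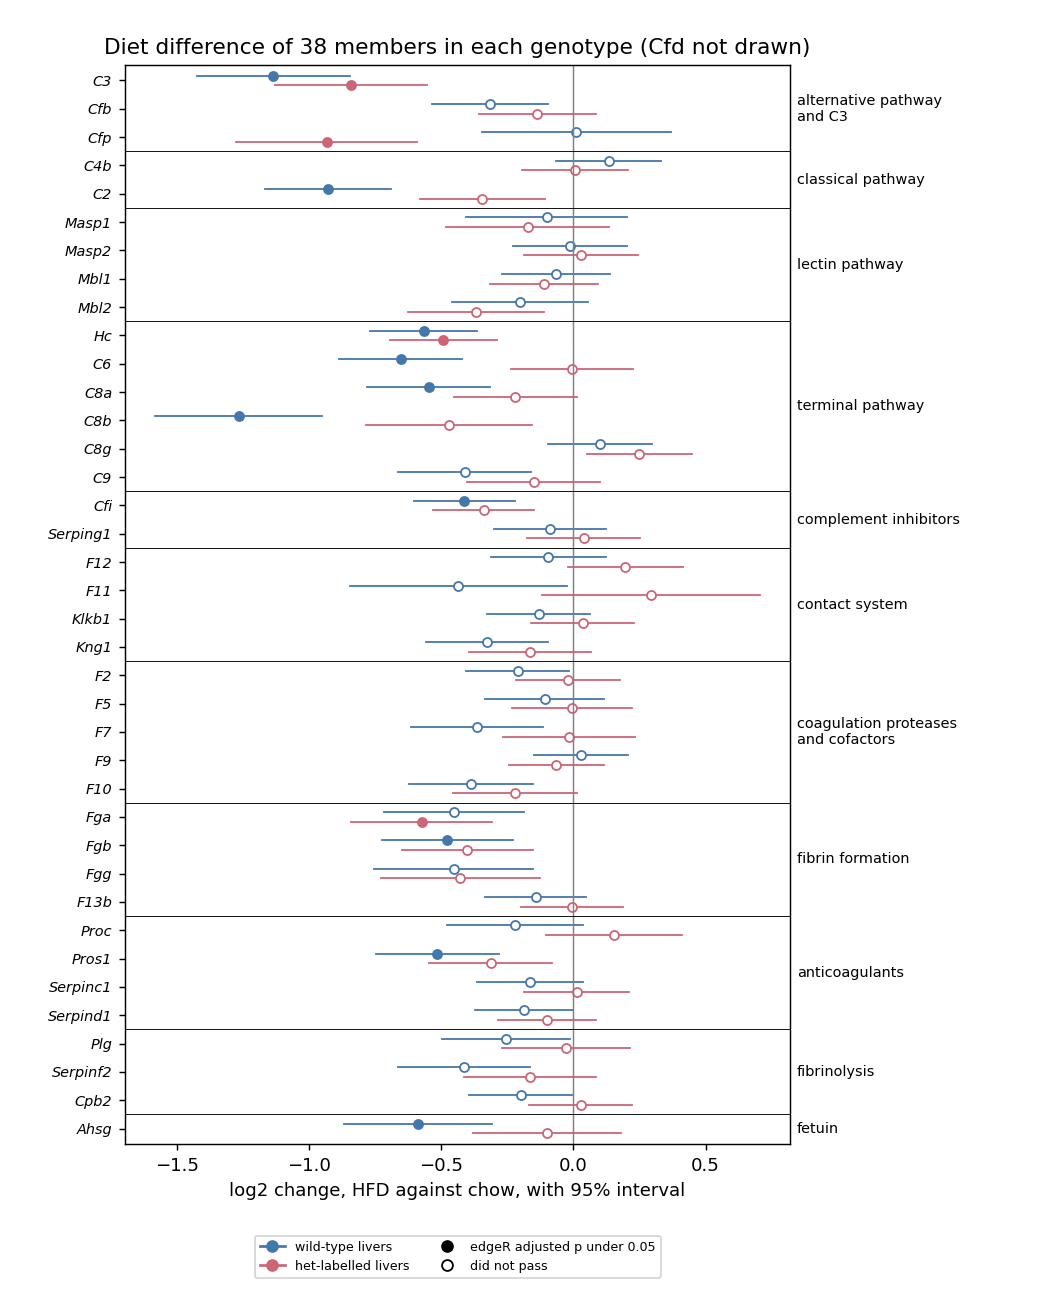
Log2 change on HFD against chow for 38 members (rows, by cascade) with 95% intervals, in wild-type livers (blue) and het-labelled livers (red); filled points passed at an edgeR adjusted p under 0.05, and Cfd is not drawn. C8b at -1.27 and C3 at -1.14 lie furthest to the left in wild-type livers. The wild-type point lies left of the het-labelled point for most members, among them C6, C8b and C2, and right of it for 7.

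C3 is the component on which the 3 routes of activation converge. It stood at 6842 and 5483 CPM on chow and 2655 and 2955 on HFD in the wild-type libraries, and at 6579.6 and 6616 on chow and 3626 and 3733 on HFD in the het-labelled ones. The HFD libraries lay below the chow libraries in each genotype, with no overlap. C3 fell to 45.5% of its chow level in wild-type livers (log2 change -1.14 ± 0.13, edgeR adjusted p = 0.00299) and to 55.8% in het-labelled livers (log2 change -0.84 ± 0.13, edgeR adjusted p = 0.0152). The het-labelled call ended without library 7, with an edgeR adjusted p of up to 0.0567 over the alternatives. The difference between the diet changes of the genotypes was 0.29 ± 0.18 (95% interval -0.11 to 0.70, edgeR adjusted p = 0.734).

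Short letter motifs of 3 factors of liver gene control were searched in the 250 bases before the transcription start of the 30 members that have a window in the RefSeq promoter table (GRCm38.p6, a later build than that of the counts), on both strands. A gene was counted if any of its windows held the motif. A C/EBP motif, TTGCNNAA, was found for 8 of 30 members (26.7%) and for 10.8% of the 27025 genes in the table. The others were a STAT motif, TTCNNNGAA, for 6 members (20%, against 8.13% of genes), and the HNF4 core, AAAGTCC, for 1 (3.33%, against 4.15%). A match is a description of letters and does not show a bound site. The windows of C3, C8a, C8b and the fibrinogen genes are shown, and that of C8g is not. C3 and C8b had the largest called decreases in wild-type livers, and the others were called themselves or lie beside called members. Matches are in capitals, and none overlaps another. The window of C3, chr17:57228137-57228386, minus strand, held a C/EBP match 45 to 38 bases before the start.
C3: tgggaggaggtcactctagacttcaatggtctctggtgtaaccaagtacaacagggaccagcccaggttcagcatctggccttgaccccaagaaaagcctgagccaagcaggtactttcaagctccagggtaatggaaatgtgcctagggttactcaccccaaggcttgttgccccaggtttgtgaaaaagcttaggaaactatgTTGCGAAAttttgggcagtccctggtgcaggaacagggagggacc

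The other genes of the alternative route behaved differently from each other. Cfb, which encodes factor B, the protease of the C3 convertase, did not pass in either genotype. Its mean was 1019 ± 86.5 CPM (SD, n = 2) in wild-type chow and 818 ± 66.6 in wild-type HFD livers (log2 change -0.32 ± 0.10, edgeR adjusted p = 0.114), and 995 ± 6.81 and 905 ± 3.399 in het-labelled livers (log2 change -0.14 ± 0.10, edgeR adjusted p = 0.523). Chow and HFD libraries did not overlap in either genotype.

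Cfd encodes factor D, or adipsin, the protease that cleaves factor B. It was the member with the fewest counts and the 1 member called higher on HFD. Wild-type livers had 8 and 10 counts of Cfd on chow and 363 and 237 on HFD, and het-labelled livers 0 and 1 on chow and 90 and 4 on HFD. In CPM this was 0.504 and 0.5797, 20.9 and 12.96, 0 and 0.06804 and 4.83 and 0.284. Both wild-type HFD libraries stood far above the others, library 7 was next, and library 8 lay below both wild-type chow libraries. Cfd reached the test only through libraries in which it was high. Its calls therefore describe these values and are not separate support for a diet difference. In wild-type livers Cfd rose (log2 change 4.94 ± 0.81, edgeR adjusted p = 0.0131), and this call ended without library 1, 2 or 5, with an edgeR adjusted p of up to 0.1298. In het-labelled livers the edgeR adjusted p was 0.109, and no fold is given against a chow group with 0 and 1 counts. The difference between the diet changes did not pass (edgeR adjusted p = 0.9395). Of the 7 listed adipocyte markers, the defining genes Adipoq, Lep, Retn and Plin1 were at or near 0, with a summed level of 0 to 0.427 CPM, highest in library 8. Lep was at 0 in 7 libraries. Of the rest of the list, Pck1, Nnat and Adrb3, edgeR called Adrb3 lower on HFD in wild-type livers (log2 change -1.32 ± 0.23, edgeR adjusted p = 0.0171). Adrb3 was also called lower on HFD in the average over genotypes and lower in het-labelled livers on chow. In the average over diets edgeR called Adrb3 and Pck1 lower in het-labelled livers.

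Cfp encodes properdin, which stabilises the alternative convertase. It stood at 11.03 and 9.45 CPM on chow and 10.2 and 10.4 on HFD in the wild-type libraries, and at 22.96 and 22.998 on chow and 13.7 and 10.2 on HFD in the het-labelled ones. The 2 het-labelled chow libraries stood above all others, and the remaining 6 lay between 9.45 and 13.7 CPM with overlap. Cfp was higher in het-labelled than in wild-type livers on chow (log2 difference 1.17 ± 0.15, edgeR adjusted p = 0.0322), where it was the 1 member called (higher, all rows 0.326%). It was lower on HFD than on chow in het-labelled livers (log2 change -0.93 ± 0.15, edgeR adjusted p = 0.0196), while in wild-type livers the log2 change was 0.01 ± 0.16 (95% interval -0.35 to 0.37). The difference between these changes was -0.94 ± 0.22 with an unadjusted p of 0.00198 and did not pass (edgeR adjusted p = 0.5800). On chow the genotype call ended without library 1, 2, 5, 6 or 3 (edgeR adjusted p up to 0.2805), and the diet call ended without library 3 or 4 or with only the 4 libraries compared (edgeR adjusted p up to 0.0732).

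Kupffer cell markers moved with Cfp. Kupffer cells are the resident macrophages of the liver. The 11 rows of the marker list summed to 196 and 178 CPM on chow and 179 and 183 on HFD in wild-type livers, and to 527 and 435 on chow and 294 and 184 on HFD in het-labelled ones. Both het-labelled chow libraries were highest and library 7 was next, the order also seen for Cfp. Of 11 tested, 6 were higher in het-labelled livers on chow (all rows 0.326%) and 8 were lower on HFD in het-labelled livers (all rows 1.48%). For the diet in wild-type livers edgeR called 0, with 1 at an unadjusted p under 0.05 (all rows 19.1%). For the genotype on HFD it called 0, with 3 at an unadjusted p under 0.05 (all rows 13.8%). The C-type lectin Clec4f stood at 53.6 and 47.6 CPM on chow and 49.5 and 50.2 on HFD in the wild-type libraries, and at 123 and 109.6 on chow and 74.9 and 50.3 on HFD in the het-labelled ones. Its log2 differences were 1.204 ± 0.17 between genotypes on chow (edgeR adjusted p = 0.0407) and -0.89 ± 0.17 between diets in het-labelled livers (edgeR adjusted p = 0.0287). The part of Kupffer cells in the Cfp values was not tested.

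**Figure D3:**
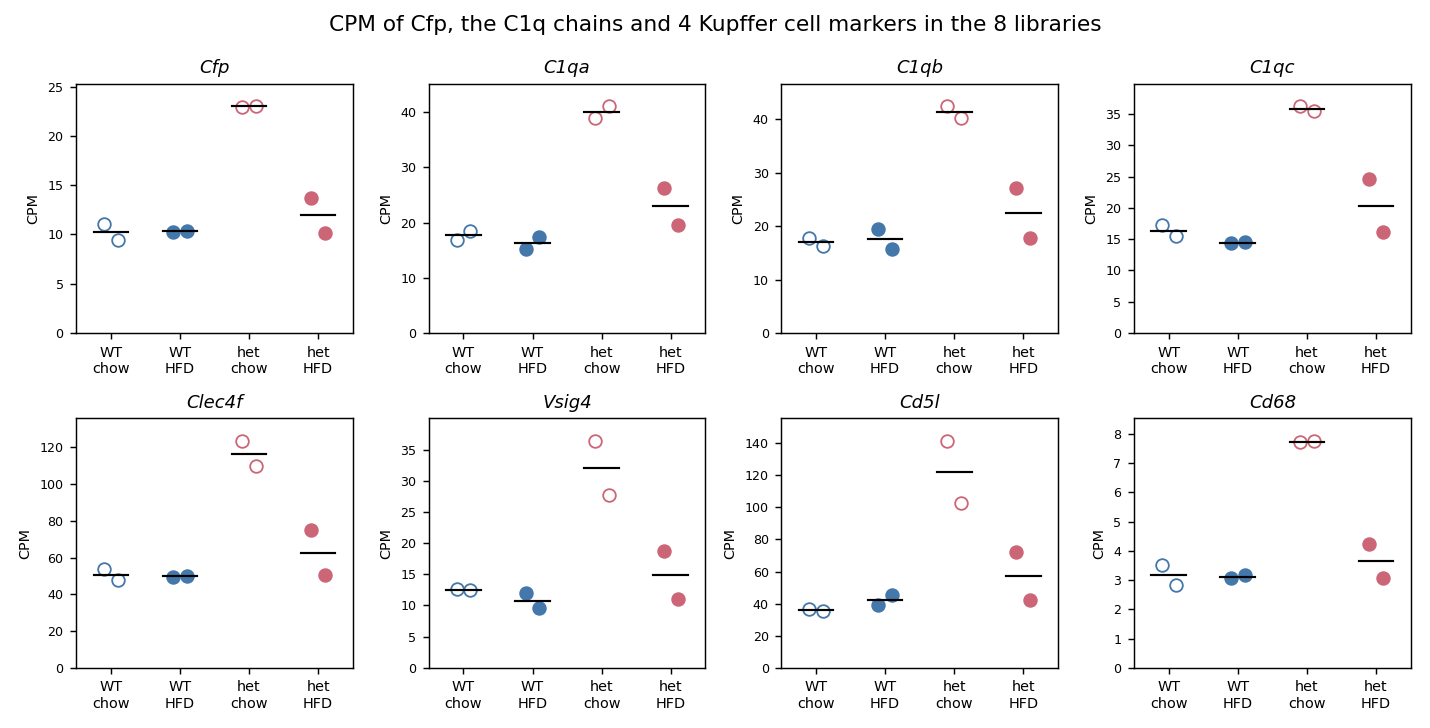
CPM of Cfp, the C1q chain genes and 4 Kupffer cell markers in each library (WT, wild-type; het, het-labelled; open circles, chow; filled circles, HFD; bars, mean of 2 libraries). In each panel the 2 het-labelled chow libraries are highest and the wild-type libraries lie close together.

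In the classical route, C2, the protease of the classical C3 convertase, was lower on HFD. It stood at 132 and 122 CPM on chow and 63.9 and 69.4 on HFD in the wild-type libraries, and at 111 and 118 on chow and 82.6 and 97.999 on HFD in the het-labelled ones. The chow libraries lay above the HFD libraries in both genotypes, and the het-labelled HFD libraries lay between the wild-type groups. C2 fell to 52.5% of its chow level in wild-type livers (log2 change -0.93 ± 0.10, edgeR adjusted p = 0.00299). In het-labelled livers it was at 78.8% and did not pass (log2 change -0.34 ± 0.10, edgeR adjusted p = 0.124). The difference between the changes was 0.58 ± 0.15 (95% interval 0.25 to 0.92, unadjusted p = 0.00345, edgeR adjusted p = 0.588). C2 and Cfb are neighbours with no protein-coding gene between them in the RefSeq order of GRCm38.p6, and Cfb was at 80.3% of its chow level in wild-type livers. C4b, the other subunit of that convertase, stood at 1080.0 ± 46.4 CPM in wild-type chow and 1185 ± 9.34 in wild-type HFD livers (log2 interval -0.07 to 0.33) and did not pass in any comparison. Its counts are uncertain, since the near-identical C4a has a row of its own and nothing says how reads that fit both genes were counted.

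The lectin route had a median log2 change of -0.08 on HFD in wild-type livers, and 0 of its 4 members were called in any comparison by edgeR. Mbl2, a mannose-binding lectin, was the 1 member with an unadjusted p under 0.05, and DESeq2 called it lower in the average over genotypes (adjusted p = 0.0383). In het-labelled livers it stood at 223 and 229 CPM on chow and 169 and 182 on HFD without overlap (log2 change -0.37 ± 0.11, edgeR adjusted p = 0.1304). For Mbl1, the other lectin, and for the proteases Masp1 and Masp2, the log2 changes of the diet lay between -0.17 and 0.03 over both genotypes. In wild-type livers the 95% intervals of these 3 were -0.27 to 0.14, -0.41 to 0.20 and -0.23 to 0.20.

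In the terminal pathway, which builds the membrane attack complex, 4 of 6 members were lower on HFD in wild-type livers and the median log2 change was -0.56. C8b, the beta chain of C8, stood at 445 and 428 CPM on chow and 160.3 and 202 on HFD in the wild-type libraries, and at 339.9 and 359 on chow and 222 and 282 on HFD in the het-labelled ones. The HFD libraries lay below the chow libraries in each genotype, and on chow the het-labelled libraries lay below the wild-type ones. C8b fell to 41.6% of its chow level in wild-type livers (log2 change -1.27 ± 0.14, edgeR adjusted p = 0.00263), and in het-labelled livers it was at 72.1% and did not pass (log2 change -0.47 ± 0.14, edgeR adjusted p = 0.114). The difference between the changes was 0.80 ± 0.19 (95% interval 0.35 to 1.24, edgeR adjusted p = 0.588). The DESeq2 Wald test gave that difference an adjusted p of 0.0482.

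C8a, the alpha chain, stood at 824 and 751 CPM on chow and 494 and 583 on HFD in the wild-type libraries, and at 779 and 817 on chow and 681 and 689 on HFD in the het-labelled ones. All 4 HFD libraries lay below all 4 chow libraries. C8a fell in wild-type livers (log2 change -0.55 ± 0.10, edgeR adjusted p = 0.0218), a call that ended without library 1, 2 or 5 (edgeR adjusted p up to 0.174), and it did not pass in het-labelled livers (log2 change -0.22 ± 0.10, edgeR adjusted p = 0.302). C8g, which encodes the gamma chain of the same protein, stood at 312 ± 7.34 CPM in wild-type chow and 334 ± 20.996 in wild-type HFD livers, and at 256 ± 17.3 and 304 ± 2.12 in het-labelled livers. Its HFD libraries lay above the chow libraries in both genotypes, and it did not pass in wild-type (log2 change 0.10 ± 0.09, edgeR adjusted p = 0.589) or het-labelled livers (log2 change 0.25 ± 0.09, edgeR adjusted p = 0.171). C8a and C8b are adjacent on chromosome 4 in the RefSeq order, and C8g is not a neighbour of either. Their upstream windows are chr4:104876399-104876648, minus strand, for C8a and chr4:104766067-104766316, plus strand, for C8b. C8a held a STAT match 228 to 220 and an HNF4 core 81 to 75 bases before the start, and the letters of the 3 motifs were not in the window of C8b.
C8a: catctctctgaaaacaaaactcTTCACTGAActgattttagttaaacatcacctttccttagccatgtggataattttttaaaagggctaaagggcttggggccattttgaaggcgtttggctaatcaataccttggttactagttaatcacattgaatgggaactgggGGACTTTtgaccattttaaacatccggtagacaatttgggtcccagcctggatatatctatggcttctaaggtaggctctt
C8b: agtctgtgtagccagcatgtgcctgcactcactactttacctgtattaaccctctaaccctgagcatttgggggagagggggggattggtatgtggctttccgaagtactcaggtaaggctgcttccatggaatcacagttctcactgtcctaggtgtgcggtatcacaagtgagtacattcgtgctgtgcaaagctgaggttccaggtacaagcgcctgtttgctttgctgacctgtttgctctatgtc

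Hc, which encodes complement C5, stood at 1022 and 996 CPM on chow and 673 and 689 on HFD in the wild-type libraries, and at 1302 and 1173 on chow and 854 and 904 on HFD in the het-labelled ones. The HFD libraries were the lower in each genotype, and the het-labelled libraries were the higher on each diet. It was lower on HFD in wild-type (log2 change -0.57 ± 0.09, edgeR adjusted p = 0.0116) and in het-labelled livers (log2 change -0.49 ± 0.09, edgeR adjusted p = 0.0269). Averaged over the diets it was higher in het-labelled livers (log2 difference 0.33 ± 0.06, edgeR adjusted p = 0.0323), as 1 with Cfp of 2 members called for that average (higher, all rows 1.21%). The wild-type call ended without library 1, 2, 5 or 6 (edgeR adjusted p up to 0.101), the het-labelled call without library 1, 2, 3, 7 or 8 (up to 0.114) and the genotype call without library 1, 2, 5, 6, 3 or 8 (up to 0.147).

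C6, the next component to join, stood at 392 and 342 CPM on chow and 238 and 228 on HFD in the wild-type libraries, and at 354 and 320.1 on chow and 318 and 354 on HFD in the het-labelled ones. The wild-type HFD libraries lay below the other 6, which overlapped. It fell in wild-type livers (log2 change -0.65 ± 0.10, edgeR adjusted p = 0.0116), a call that ended without library 1, 5 or 6 (edgeR adjusted p up to 0.103). In het-labelled livers the log2 change was 0.00 ± 0.10 (95% interval -0.24 to 0.23), and the difference between the changes, 0.65 ± 0.14, did not pass (unadjusted p = 0.00164, edgeR adjusted p = 0.5800). On HFD, C6 was 0.53 ± 0.10 higher on the log2 scale in het-labelled livers, without overlap and without passing (edgeR adjusted p = 0.06801), and the DESeq2 Wald test called it (adjusted p = 0.00511). C9, which lines the pore, had means of 566 ± 1.12 and 426 ± 13.3 CPM on chow and HFD in wild-type livers and did not pass (log2 change -0.41 ± 0.11, edgeR adjusted p = 0.0762), while the DESeq2 Wald test called it (adjusted p = 0.0284).

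Of the 2 complement inhibitors in the set, Cfi was lower on HFD. Cfi encodes factor I, the protease that inactivates C3b and C4b. It stood at 481 and 438 CPM on chow and 349 and 342 on HFD in the wild-type libraries, and at 461 and 449.5 on chow and 349 and 371 on HFD in the het-labelled ones. All 4 HFD libraries lay below all 4 chow libraries, and the genotypes lay close together on each diet. It fell in wild-type livers (log2 change -0.41 ± 0.08, edgeR adjusted p = 0.0297) and did not pass in het-labelled livers (log2 change -0.34 ± 0.08, edgeR adjusted p = 0.0715). Averaged over genotypes the change was -0.38 ± 0.06 (edgeR adjusted p = 0.00578), a call kept under all 13 alternatives, whereas the wild-type call ended without library 1, 2, 5 or 6 (edgeR adjusted p up to 0.237). Serping1, the inhibitor of C1 and of contact proteases, had group means from 589 to 639.7 CPM and did not pass in any comparison.

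**Figure D4:**
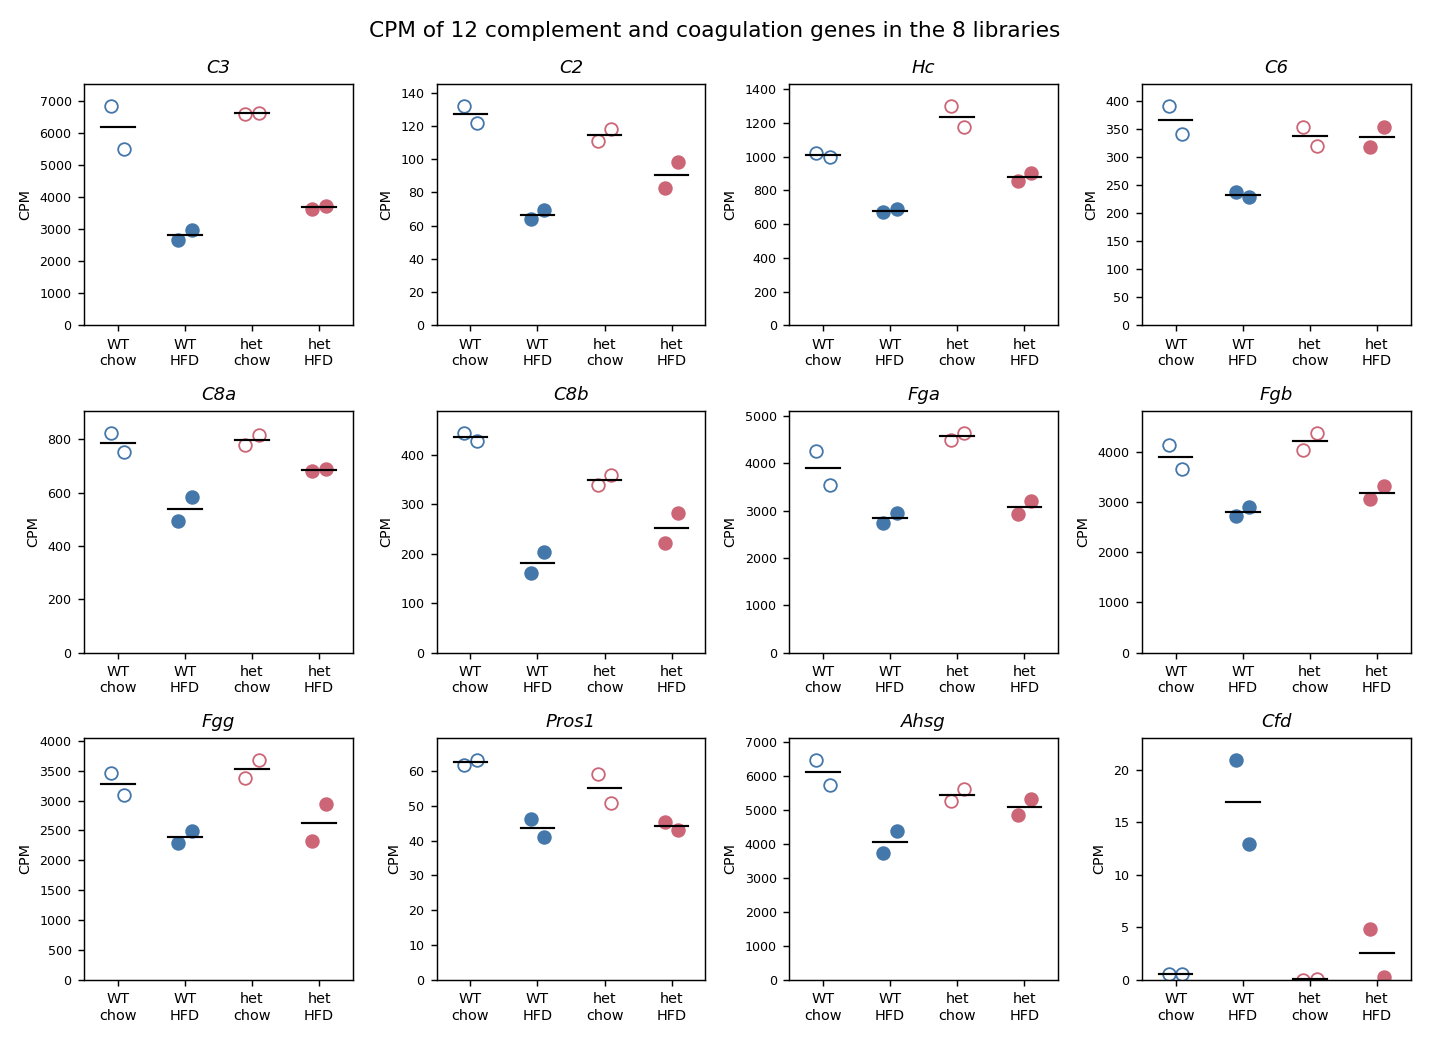
CPM of 12 members in each library (WT, wild-type; het, het-labelled; open circles, chow; filled circles, HFD; bars, mean of 2 libraries; each axis starts at 0). For C3, C2, C8b, Fga and Fgb the HFD libraries lie below the chow libraries of the same genotype, while for C6 and Ahsg the diets overlap in het-labelled livers and do not overlap in wild-type livers.

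The contact system starts coagulation on charged surfaces, and 0 of its 4 members were called in any comparison by edgeR. For the diet, F11 and Kng1 had an unadjusted p under 0.05 in wild-type livers, and DESeq2 called Kng1 lower in the average over genotypes (adjusted p = 0.0397). F12, the factor XII gene, stood at 391 ± 10.8 and 366 ± 21.4 CPM on chow and HFD in wild-type livers and at 346 ± 37.1 and 397 ± 7.46 in het-labelled livers. F11, which encodes factor XI, the protease that activates factor IX, varied between libraries of a group. It stood at 99.8 and 109.6 CPM on chow and 72.8 and 81.96 on HFD in the wild-type libraries, and at 61.9 and 91.6 on chow and 105 and 82.7 on HFD in the het-labelled ones. In wild-type livers the HFD libraries were lower without overlap (log2 change -0.44 ± 0.18, edgeR adjusted p = 0.233), and in het-labelled livers the diets overlapped (log2 change 0.29 ± 0.18, edgeR adjusted p = 0.451). Its neighbour Klkb1, plasma prekallikrein, had group means from 161 to 177 CPM. The kininogen gene Kng1 stood at 1787 ± 106 CPM in wild-type chow and 1423 ± 67.03 in wild-type HFD livers and did not pass (log2 change -0.33 ± 0.10, edgeR adjusted p = 0.116), and its counts are uncertain because of the near-identical Kng2.

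Among the coagulation proteases and cofactors, 0 of 5 were called within either genotype by edgeR, with 3 at an unadjusted p under 0.05 in wild-type and 0 in het-labelled livers. F10 was lower on HFD when the genotypes were averaged. F10 encodes factor X, where the 2 routes meet. It stood at 371 and 355 CPM on chow and 267 and 288 on HFD in the wild-type libraries, and at 316 and 363 on chow and 273 and 311 on HFD in the het-labelled ones. The HFD libraries lay below the chow libraries in each genotype. The averaged change was -0.30 ± 0.07 (edgeR adjusted p = 0.0338), and it ended without library 1, 2, 5, 6, 4 or 7 (edgeR adjusted p up to 0.118). In wild-type livers it did not pass (log2 change -0.39 ± 0.10, edgeR adjusted p = 0.0737), and the DESeq2 Wald test called it (adjusted p = 0.0405). F7, the neighbour of F10 and the tissue factor partner, had means of 88.7 ± 1.41 and 68.8 ± 7.94 CPM on chow and HFD in wild-type livers without overlap (log2 change -0.37 ± 0.11, edgeR adjusted p = 0.108) and of 83.8 ± 7.503 and 82.98 ± 6.66 in het-labelled livers. For F2 (prothrombin), F5 (factor V) and F9 (factor IX) the diet changes lay between -0.21 and 0.03 over both genotypes.

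The 3 chains of fibrinogen were all lower on HFD in the average over genotypes. They summed to 11855 and 10297 CPM on chow and 7741 and 8348 on HFD in wild-type livers, and to 11912 and 12704 on chow and 8309 and 9452 on HFD in het-labelled ones, and all 4 HFD libraries lay below all 4 chow libraries. On HFD the sum was at 0.726 of its chow level in wild-type and at 0.721 in het-labelled livers. Fga, the alpha chain, stood at 4257 and 3540.0 CPM on chow and 2741 and 2958 on HFD in the wild-type libraries, and at 4489 and 4645 on chow and 2938 and 3196 on HFD in the het-labelled ones. It was lower on HFD in het-labelled livers (log2 change -0.57 ± 0.12, edgeR adjusted p = 0.0397), did not pass in wild-type livers (log2 change -0.45 ± 0.12, edgeR adjusted p = 0.0679, DESeq2 adjusted p = 0.00854) and was lower when the genotypes were averaged (log2 change -0.51 ± 0.08, edgeR adjusted p = 0.00646). Fgb, the beta chain, stood at 4144 and 3668 CPM on chow and 2716 and 2893 on HFD in the wild-type libraries, and at 4038 and 4381 on chow and 3052 and 3322 on HFD in the het-labelled ones. It was lower in wild-type livers (log2 change -0.48 ± 0.11, edgeR adjusted p = 0.0446), did not pass in het-labelled livers (log2 change -0.40 ± 0.11, edgeR adjusted p = 0.0953, DESeq2 adjusted p = 0.03498) and was lower in the average (log2 change -0.44 ± 0.08, edgeR adjusted p = 0.009298). Fgg, the gamma chain, stood at 3454 and 3089 CPM on chow and 2284 and 2497 on HFD in the wild-type libraries, and at 3385 and 3679 on chow and 2318 and 2934 on HFD in the het-labelled ones. It did not pass in wild-type livers (log2 change -0.45 ± 0.13, edgeR adjusted p = 0.0996, DESeq2 adjusted p = 0.0203) or het-labelled livers (log2 change -0.43 ± 0.13, edgeR adjusted p = 0.131) and was lower in the average (log2 change -0.44 ± 0.09, edgeR adjusted p = 0.0206).

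DESeq2 thus called all 3 chains lower in wild-type livers and Fga and Fgb in het-labelled livers. For each chain the chow and HFD libraries of a genotype did not overlap. The differences between the diet changes of the genotypes were -0.12 ± 0.17, 0.08 ± 0.15 and 0.03 ± 0.19 for Fga, Fgb and Fgg, with 95% intervals of -0.50 to 0.25, -0.27 to 0.43 and -0.40 to 0.45. Within a genotype the calls lay near the threshold. That of Fga in het-labelled livers ended without each of the 8 libraries in turn, including the wild-type ones outside that comparison. The log2 change of Fga stayed between -0.63 and -0.51 over the alternatives. The call of Fgb in wild-type livers ended without library 1, 2, 5 or 6, with a log2 change between -0.56 and -0.41 over the alternatives. In the average, Fga and Fgb kept their call under all 13 alternatives, and Fgg lost it without library 1 or 5 (edgeR adjusted p up to 0.0821). F13b, the carrier subunit of the fibrin cross-linking factor XIII, had group means from 170.1 to 196 CPM and did not pass in any comparison.

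The fibrinogen genes lie side by side on chromosome 3, with Fga between Fgb and Fgg. Their upstream windows are chr3:83025903-83026152, plus strand, for Fga, chr3:83049864-83050113, minus strand, for Fgb and chr3:83007474-83007723, plus strand, for Fgg. Fga held a C/EBP match 135 to 128 and a STAT match 234 to 226 bases before its start. Fgb held the same kinds at 80 to 73 and 162 to 154. The letters of the 3 motifs were not in the window of Fgg, which says nothing of the factors.
Fga: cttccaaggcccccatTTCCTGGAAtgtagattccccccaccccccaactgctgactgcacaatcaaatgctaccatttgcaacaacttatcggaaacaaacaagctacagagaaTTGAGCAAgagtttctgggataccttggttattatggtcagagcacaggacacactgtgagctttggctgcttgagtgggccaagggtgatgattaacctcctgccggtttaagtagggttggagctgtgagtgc
Fgb: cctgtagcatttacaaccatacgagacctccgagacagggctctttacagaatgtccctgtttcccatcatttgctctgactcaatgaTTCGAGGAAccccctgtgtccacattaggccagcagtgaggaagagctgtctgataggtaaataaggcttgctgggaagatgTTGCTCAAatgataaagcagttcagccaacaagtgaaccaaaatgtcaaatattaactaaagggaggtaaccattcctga
Fgg: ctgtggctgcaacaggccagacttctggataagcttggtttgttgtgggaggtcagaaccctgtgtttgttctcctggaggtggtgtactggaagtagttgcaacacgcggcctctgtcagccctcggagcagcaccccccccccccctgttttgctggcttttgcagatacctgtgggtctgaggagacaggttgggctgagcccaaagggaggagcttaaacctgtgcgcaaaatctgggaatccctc

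Of the 4 anticoagulants, Pros1, which encodes protein S, the cofactor of activated protein C, was lower on HFD. It stood at 61.8 and 63.2 CPM on chow and 46.3 and 41.2 on HFD in the wild-type libraries, and at 59.1 and 50.9 on chow and 45.5 and 42.95 on HFD in the het-labelled ones. The HFD libraries lay below the chow libraries in each genotype. It fell in wild-type livers (log2 change -0.52 ± 0.10, edgeR adjusted p = 0.0277), did not pass in het-labelled livers (log2 change -0.31 ± 0.10, edgeR adjusted p = 0.1501) and was lower in the average (log2 change -0.41 ± 0.07, edgeR adjusted p = 0.009297). The average call was kept under all 13 alternatives, and the wild-type call ended without library 1, 2, 5 or 6 (edgeR adjusted p up to 0.185). Proc, protein C itself, had means of 439 ± 14.9 and 377 ± 41.8 CPM on chow and HFD in wild-type and of 369 ± 47.3 and 410.2 ± 12.7 in het-labelled livers, and did not pass. For antithrombin (Serpinc1) and heparin cofactor II (Serpind1) the diet changes lay between -0.19 and 0.01 over both genotypes, and neither passed.

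In fibrinolysis, Serpinf2, which encodes alpha-2-antiplasmin, the inhibitor of plasmin, stood at 781 and 726 CPM on chow and 550.1 and 581 on HFD in the wild-type libraries, and at 619 and 768 on chow and 618 and 619 on HFD in the het-labelled ones. The diets did not overlap in wild-type livers and overlapped in het-labelled livers through library 3. It did not pass within a genotype (in wild-type livers log2 change -0.41 ± 0.11, edgeR adjusted p = 0.0749), while the DESeq2 Wald test called it in wild-type livers (adjusted p = 0.0246). The average passed at the edge of the threshold (log2 change -0.29 ± 0.08, edgeR adjusted p = 0.04999), and that call ended without library 1, 2, 5, 6, 4, 7 or 8 (edgeR adjusted p up to 0.164). Plg, the precursor of plasmin, had means of 2199 ± 0.741 and 1841 ± 136 CPM on chow and HFD in wild-type livers (log2 change -0.26 ± 0.11, edgeR adjusted p = 0.234). Cpb2, the carboxypeptidase that protects fibrin from plasmin, had 306 ± 5.34 and 267 ± 19.3 (log2 change -0.20 ± 0.09, edgeR adjusted p = 0.253). In het-labelled livers the 95% intervals were -0.27 to 0.21 for Plg and -0.17 to 0.22 for Cpb2.

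Ahsg, fetuin-A, is an abundant liver glycoprotein that binds calcium phosphate. It stood at 6481 and 5743 CPM on chow and 3733 and 4401 on HFD in the wild-type libraries, and at 5280.1 and 5633 on chow and 4865 and 5317 on HFD in the het-labelled ones. The wild-type HFD libraries lay below the other 6. It fell to 66.5% of its chow level in wild-type livers (log2 change -0.59 ± 0.12, edgeR adjusted p = 0.0336) and overlapped between diets in het-labelled livers (log2 change -0.10 ± 0.12, edgeR adjusted p = 0.733). The difference between the changes, 0.49 ± 0.17, did not pass (unadjusted p = 0.0213, edgeR adjusted p = 0.657), and the wild-type call ended without library 1, 2, 5 or 6 (edgeR adjusted p up to 0.231).

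Averaged over genotypes, 15 members were lower on HFD (all rows 4.84%) and 1 was higher (all rows 5.56%), with 23 at an unadjusted p under 0.05 (all rows 25.3%). The 15 were the wild-type 10 with Cfp, F10, Fga, Fgg and Serpinf2. The 1 was Cfd, which passed the filter only through libraries in which it was high. A call in the average does not show a change in each genotype. For Cfp the log2 changes were 0.01 in wild-type and -0.93 in het-labelled livers, and for C6 -0.65 and -0.005. C3 and Hc were called lower in each genotype. Of these 16 calls, those of C3, Cfd, C2, Hc, C8b, Cfi, Fga, Fgb and Pros1 were kept under all 13 alternatives. The count of lower members was 8 without library 1, and 18 by DESeq2, which added Mbl2, C9 and Kng1. Neither of these counts has a share of all rows beside it. By log2 change in the average, C3 led at -0.99 ± 0.09, then C8b at -0.87 ± 0.10 and C2 at -0.64 ± 0.07.

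Between genotypes few members differed. On HFD, 0 members were called higher (all rows 0.0953%) and 0 lower (all rows 0.349%) in het-labelled than in wild-type livers, while 10 had an unadjusted p under 0.05 (all rows 13.8%) and DESeq2 called 1, C6. Without a filter on low counts, C6 was called higher and Cfd lower. The members' median log2 difference on HFD was 0.11, with 10 of 39 below 0, and 0.00 over all rows. Libraries did not overlap with het-labelled higher in 17 (all rows 22.8%) and lower in 6 (all rows 24.3%). On chow 0 were lower by edgeR (all rows 0.191%) and 0 by DESeq2, and 8 members, Cfp among them, had an unadjusted p under 0.05 (all rows 15.3%). The chow median was -0.09, with 29 of 39 below 0, and 0.01 over all rows. Libraries did not overlap with het-labelled lower in 15 (all rows 21.9%) and higher in 3 (all rows 24.0%). These comparisons share no library with each other, but each shares its libraries with the diet comparisons. Averaged over diets, Cfp and Hc were higher and 0 were lower by edgeR (all rows 2.03%) and by DESeq2, with 8 members at an unadjusted p under 0.05 (all rows 20.4%).

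The interaction of genotype and diet, which asks whether the diet change differs between genotypes, was called by edgeR in 0 of 39 members and in 0 of the 12593 rows (0%). At an unadjusted p under 0.05 there were 7 members, against 7.15% of all rows: C2, C6, C8b, F11, Proc and Ahsg, with a less negative or more positive change in het-labelled livers, and Cfp, with a more negative one. DESeq2 called 1 member, C8b. The members' median interaction was 0.17 on the log2 scale and -0.02 over all rows. A call in wild-type livers that was absent in het-labelled livers is thus not shown to differ between them. For C6 the 95% interval was 0.32 to 0.98, for C2 0.25 to 0.92 and for C8b 0.35 to 1.24, whereas for Hc and Cfi it was -0.21 to 0.36 and -0.20 to 0.34.

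Other genes of the cascades, 118 rows of 11 lists of which 103 were tested, were counted in the same fits. In wild-type livers 3 were higher (all rows 2.37%) and 11 lower (all rows 2.22%) on HFD. In het-labelled livers 6 were higher (all rows 1.53%) and 8 lower (all rows 1.48%). Het-labelled livers had 4 higher (all rows 0.326%) and 0 lower (all rows 0.191%) on chow. Between genotypes on HFD edgeR called 0 higher (all rows 0.0953%) and 0 lower (all rows 0.349%). There 22 had an unadjusted p under 0.05 (all rows 13.8%), and the median log2 difference was 0.10. Of the C1 complex, which starts the classical route, 2 of 6 were lower on HFD in wild-type livers, the proteases C1ra (log2 change -0.47 ± 0.09, edgeR adjusted p = 0.0246) and C1rb (log2 change -0.54 ± 0.08, edgeR adjusted p = 0.0113), near-identical copies whose counts are uncertain. The 3 chains of C1q were not called there. They were higher in het-labelled livers on chow, C1qa at 16.9 and 18.4 CPM on chow and 15.3 and 17.4 on HFD in the wild-type libraries, and at 38.98 and 41.03 on chow and 26.2 and 19.6 on HFD in the het-labelled ones (log2 difference 1.18 ± 0.14, edgeR adjusted p = 0.0262), C1qb (log2 difference 1.28 ± 0.19, edgeR adjusted p = 0.0413) and C1qc (log2 difference 1.13 ± 0.18, edgeR adjusted p = 0.0459). The het-labelled chow libraries lay above all others. On HFD in het-labelled livers all 3 were lower, C1qa among them (log2 change -0.80 ± 0.14, edgeR adjusted p = 0.0267), and C1q genes are among the Kupffer cell markers whose sums stand beside Cfp.

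Complement regulators outside the set held 1 higher and 3 lower of 13 tested in wild-type livers. Susd4, a membrane inhibitor of complement, stood at 39.9 and 41.2 CPM on chow and 17.1 and 15.5 on HFD in the wild-type libraries, and at 38.6 and 34.2 on chow and 20.7 and 16.997 on HFD in the het-labelled ones. All 4 HFD libraries lay below all 4 chow libraries, and Susd4 fell in wild-type (log2 change -1.31 ± 0.12, edgeR adjusted p = 0.00148) and het-labelled livers (log2 change -0.95 ± 0.12, edgeR adjusted p = 0.00828). The carboxypeptidase N subunit Cpn2 was lower in wild-type livers (log2 change -0.39 ± 0.08, edgeR adjusted p = 0.0289), and Cd59a, which blocks the membrane attack complex, was higher (log2 change 0.43 ± 0.09, edgeR adjusted p = 0.0319). Of 7 tested complement receptors, 0 passed edgeR on HFD against chow in wild-type livers, also at an unadjusted p under 0.05. In het-labelled livers C3ar1, the receptor of C3a (log2 change -1.24 ± 0.24, edgeR adjusted p = 0.0312), and Vsig4, a receptor of C3 fragments on Kupffer cells (log2 change -1.09 ± 0.23, edgeR adjusted p = 0.0439), were lower on HFD. C3ar1 was also higher in het-labelled livers on chow (log2 difference 1.60 ± 0.25, edgeR adjusted p = 0.0455).

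Of 10 tested coagulation genes outside the set, Fgl1, a fibrinogen-like hepatokine, was lower and Lman1, the cargo receptor that exports factors V and VIII, was higher on HFD in wild-type livers. Fgl1 stood at 147 and 121 CPM on chow and 65.9 and 62.2 on HFD in the wild-type libraries, and at 191 and 253 on chow and 61.3 and 92.8 on HFD in the het-labelled ones. All 4 HFD libraries were below all 4 chow libraries (log2 change -1.07 ± 0.20 in wild-type, edgeR adjusted p = 0.0226, and -1.53 ± 0.20 in het-labelled livers, edgeR adjusted p = 0.00912). Lman1 changed by 0.40 ± 0.09 (edgeR adjusted p = 0.0474) in wild-type livers. Of 8 tested anticoagulants, Proz, protein Z, was lower in wild-type livers (log2 change -0.34 ± 0.07, edgeR adjusted p = 0.0385). In the 4 pairwise comparisons edgeR called 0 of 6 vitamin K cycle genes, 0 of 5 further fibrinolysis genes and 0 of 7 other complement components. At an unadjusted p under 0.05 these lists had at most 1, 4 and 2 genes in a comparison. The 4, of 5 fibrinolysis genes, were for the diet in het-labelled livers (all rows 18.2%). There the median log2 change of that list was 0.87, and in wild-type livers it was 0.20. Among 13 other secreted liver proteins, 3 were lower in wild-type livers. They were fetuin-B (Fetub, log2 change -0.78 ± 0.11, edgeR adjusted p = 0.00796) and the inter-alpha-trypsin inhibitor heavy chains Itih3 (log2 change -0.80 ± 0.13, edgeR adjusted p = 0.0129) and Itih2 (log2 change -0.47 ± 0.09, edgeR adjusted p = 0.0293). Itih3 was also lower in het-labelled livers (log2 change -0.62 ± 0.13, edgeR adjusted p = 0.0419).

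Regulators of these genes were measured as well. Of 12 genes of interleukin-6 and STAT3 signalling, Il6ra, the interleukin-6 receptor, was lower on HFD in wild-type livers, at 16.8 and 19.7 CPM on chow and 8.71 and 7.76 on HFD (log2 change -1.14 ± 0.24, edgeR adjusted p = 0.0353). In het-labelled livers its diets overlapped (log2 change -0.42 ± 0.25, edgeR adjusted p = 0.433), and Il1rap, a subunit of the interleukin-1 receptor, was higher (log2 change 0.45 ± 0.08, edgeR adjusted p = 0.0283). Of 16 hepatic transcription regulators, 1 was higher on HFD in wild-type livers, Dbp (log2 change 3.45 ± 0.75, edgeR adjusted p = 0.0371), and 5 in het-labelled livers, among them Tef (log2 change 1.997 ± 0.23, edgeR adjusted p = 0.00552), Dbp (log2 change 5.15 ± 0.83, edgeR adjusted p = 0.0196) and Nr1d1 (log2 change 1.39 ± 0.24, edgeR adjusted p = 0.0259). Dbp, Tef and Nr1d1 follow the circadian clock, and the labels give no time of day. Chow libraries held 8 and 16 (wild-type) and 5 and 6 (het-labelled) counts of Dbp, and HFD libraries 227 and 53 and 305 and 155. The part of clock phase in the members' values was not tested. Cebpa, of the C/EBP family, was higher in the average (log2 change 0.46 ± 0.08, edgeR adjusted p = 0.00702), and Hnf4a did not pass in wild-type livers (log2 change -0.26 ± 0.10, edgeR adjusted p = 0.218).

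Averages over genotypes or diets added calls in these lists. For the diet, 11 of the 103 genes were higher (all rows 5.56%) and 24 lower (all rows 4.84%). For the genotype 6 were higher (all rows 1.21%) and 1 lower (all rows 2.03%). On HFD the pentraxin Crp was lower (log2 change -0.22 ± 0.06, edgeR adjusted p = 0.0459). So were Itgb2, a chain of the complement receptors of leukocytes (log2 change -0.74 ± 0.18, edgeR adjusted p = 0.0365), and the protease inhibitor Pzp (log2 change -0.36 ± 0.08, edgeR adjusted p = 0.0206). Of the signalling genes, Stat3 (log2 change -0.40 ± 0.10, edgeR adjusted p = 0.0325) and Lifr (log2 change -1.06 ± 0.28, edgeR adjusted p = 0.0476) were lower with Il6ra. Hgfac, a serine protease that activates hepatocyte growth factor, was higher (log2 change 0.33 ± 0.07, edgeR adjusted p = 0.0169). In het-labelled livers the interleukin-1 receptor Il1r1 (log2 difference 0.72 ± 0.10, edgeR adjusted p = 0.0151) and Vsig4 (log2 difference 0.92 ± 0.17, edgeR adjusted p = 0.02898) were higher, and annexin A5 (Anxa5) was lower (log2 difference -0.57 ± 0.11, edgeR adjusted p = 0.0363).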

How the data were processed

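Liver RNA was sequenced in 8 libraries, 2 per group, with groups and library numbers taken from the titles. The authors deposited whole-number read counts per gene, not normalized. Per the submitters' processing notes the tools were TopHat2, HTSeq, CASAVA and DESeq and the build was mm9, with versions, roles and strand not given in the sources used here. Whether reads of genes that overlap, also on opposite strands, were told apart is therefore not known here. Counts were fitted with edgeR 4.0.16 in R 4.3.3: filterByExpr, scaling by TMM, quasi-likelihood tests on 4 group means from all 8 libraries (4 residual degrees of freedom), Benjamini-Hochberg adjustment over 12593 rows, and a call at an adjusted p under 0.05. SEs were calculated back from each test statistic. The alternatives were RLE and upper quartile factors, DESeq2 1.42.0, no filter, the merged Mup row (7.42% to 13.6% of counts) left out, each library left out, and only the 4 libraries compared. The fit was tested on simulated data. CPM per kb used merged exons of GENCODE M21. Library values are given for members called in any comparison or differing without overlap by at least 0.5 (log2), and from each other list up to 4 called genes per comparison are named, a few of which are not reported here. Members, lists and tests were chosen with earlier results of these data known, and listed symbols without a row were not analysed here.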

Additional observations from a re-analysis of the deposited data

Results flagged for a closer look

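For 5 members the libraries of the 2 groups compared did not overlap and differed in opposite directions in the 2 settings of a comparison. A genotype difference that was negative on chow and positive on HFD without overlap was found in 5 of 39 members (12.8%) and in 2.18% of all 12593 tested rows, and a diet difference negative in wild-type and positive in het-labelled livers in 1 member (2.56%) and in 2.04% of all rows. The genotype difference was negative on chow and positive on HFD for C2 (interaction of 0.58 on the log2 scale, edgeR adjusted p = 0.588), C8b (0.80, edgeR adjusted p = 0.588), F11 (0.73, edgeR adjusted p = 0.6498), Ahsg (0.49, edgeR adjusted p = 0.657) and F12 (0.29, edgeR adjusted p = 0.7003). For F12 the diet difference also had opposite directions, lower on HFD in wild-type and higher in het-labelled livers (the same interaction, 0.29). In none of these 5 did the interaction pass the edgeR test, and for C8b it passed the DESeq2 Wald test (adjusted p = 0.0482).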

How the results depend on the processing

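No member reversed its direction in a called comparison under an alternative, and RLE factors, upper quartile factors and leaving out the merged Mup row changed none of the counts of members past the threshold by over 1.5 times. With only the 4 libraries compared, 16 members were lower in wild-type livers and 1 in het-labelled livers. The shares of all rows called under the alternatives are not reported here, so these counts cannot be set against a background. The DESeq2 Wald test called 1 member higher for each of the diet in het-labelled livers, the genotype on HFD and the interaction. Without the filter 1 was higher on HFD among het-labelled livers, and 1 higher and 1 lower for the genotype on HFD. Leaving out 1 library at a time gave between 0 and 1 higher and 3 and 13 lower members in wild-type livers, 0 and 1 higher and 1 and 3 lower in het-labelled livers, 0 and 1 lower for the genotype on HFD, 0 and 1 higher for the genotype on chow, 8 and 14 lower for the averaged diet, and 0 and 2 higher and 0 and 1 lower for the averaged genotype. A group left with 1 library was assumed to vary like the others. No paired analysis was possible because the library numbers run from 1 to 8 and none is shared between groups. Cfd, with 0 to 10 counts on chow, is the member that depth limits most.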
